A study of Homo sapiens with 6 samples.

Results

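The GALNT genes encode the polypeptide N-acetylgalactosaminyltransferases, the Golgi enzymes that start mucin-type O-glycosylation. Each attaches N-acetylgalactosamine (GalNAc), taken from the donor UDP-GalNAc, to a serine or threonine of a protein on its way to the cell surface or out of the cell. The family is large because its members differ in the peptides they prefer: some start on bare peptide, while others, such as GALNT7 and GALNT10, act mainly on peptides that already carry GalNAc and so fill in dense clusters. The core sugar is then lengthened by galactosyl- and N-acetylglucosaminyltransferases and capped with sialic acid, and altered O-glycans with short or early-capped chains are a known feature of carcinomas.

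The libraries come from KYSE-150, a long-established human line of esophageal squamous cell carcinoma. The cells of 1 group were transfected with a small interfering RNA that targets circTMEM45A, the circular RNA made from TMEM45A (si-circTMEM45A), and those of the other with a control small interfering RNA (si-NC). Each group has 3 libraries of RNA captured by its polyA tail. The labels give no dose or time after transfection and do not say whether the 3 libraries were separate cultures, and p-values here reflect library-to-library spread alone, which could be technical. The set described here was chosen by hand from the FPKM values of this same comparison: 10 GALNT genes were picked because the FPKM of GALNT7 was about halved. The differences of the members between the groups are therefore given as a description, without a p-value. Of the 10 listed genes, 9 had a row among the 29816 genes of the table, and all 9 reached the expression filter (FPKM, fragments counted per length of gene and per library size, of at least 1 in at least 3 libraries) that 12676 genes passed. GALNT5 had no row and was not analysed here. GALNT18, which was not on the list, is given beside the members because it was expressed at a similar level.

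Library totals were 16636248 to 17323964 gene-assigned reads. Of 8 squamous markers, 7 had a mean of at least 1 FPKM, among them KRT5, TP63 and DSG3. The summed FPKM of the other marker lists was 1.96 to 2.38 over the 6 libraries for 3 fibroblast markers (nearly all of it COL1A1), 0.487 to 0.925 for 4 immune markers, 0.786 to 1.41 for 3 endothelial markers and 0.0234 to 0.105 for 3 columnar gland markers, with the immune marker PTPRC at 0 to 2 reads and the gland marker KRT20 at 0 to 1 read. The summed squamous markers were lower with si-circTMEM45A (901 to 1023 FPKM) than with si-NC (1083 to 1210), and their part in the results below was not tested. Single markers moved both ways: KRT5, the keratin of basal squamous cells, went from 360 ± 11.6 to 238 ± 10.6 FPKM (SD, n = 3; limma adjusted p = 0.000768), and the stress-inducible keratin KRT17 from 70.5 ± 4.28 to 98.7 ± 5.89 (limma adjusted p = 0.00331). TMEM45A, the host gene, stood at 2.90 to 3.26 FPKM in control libraries and at 1.91 to 2.34 in treated ones (limma adjusted p = 0.0167). That call was lost with no filter on low values (limma adjusted p = 0.0614). It was also lost without replicate 1 or 3 of si-NC, or replicate 2 or 3 of si-circTMEM45A (limma adjusted p 0.0505 to 0.0587). The circle itself was not measured here.

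GALNT7 (ENSG00000109586, chromosome 4, 173168753 to 173323967, plus strand, GRCh38) had 14.1, 15.0 and 13.9 FPKM in the si-NC libraries and 7.13, 6.69 and 7.47 in the si-circTMEM45A libraries. Every si-circTMEM45A library was below every si-NC library. The means were 14.3 ± 0.56 and 7.09 ± 0.39 FPKM (SD, n = 3), a ratio of 0.495. The level rested on 1620 to 1710 reads per library with si-NC and 775 to 888 with si-circTMEM45A. On the log2(FPKM + 1) scale of the limma fit the difference was -0.92 ± 0.05 (SE). Of all 12676 tested genes, 31 had a more negative difference, and of the 7564 with a mean of at least 5 FPKM, 7 did. The set was picked on this drop, so the rank is a description only. The GALNT7 difference lay between -1.01 and -0.89 under all 16 alternative settings, including each fit that left out 1 library.

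Genes annotated across parts of GALNT7 had few reads assigned to them, and reads within the overlaps were not counted apart. The RNA gene GALNT7-DT runs against GALNT7 on the minus strand across its start and had 18 to 68 reads per library. Its FPKM was 0.88, 1.21 and 0.32 with si-NC and 0.73, 0.40 and 0.87 with si-circTMEM45A, so the groups overlapped. The antisense gene ENSG00000248774, which overlaps the 3′ end of GALNT7, had 0 to 3 reads. Whether counting used the strand is not given in the sources used here. Of the other genes within 500 kb, 2 were tested, named here after their values were seen. HMGB2, a chromatin protein gene 7.7 kb beyond the 3′ end of GALNT7, had 53.5, 54.4 and 47.0 FPKM with si-NC and 39.8, 40.4 and 42.0 with si-circTMEM45A. It fell by 0.33 ± 0.06 (SE) on the log2(FPKM + 1) scale (limma adjusted p = 0.0107). SAP30, a subunit of a histone deacetylase complex encoded 46.0 kb away, had 2.93 ± 1.35 and 3.74 ± 0.47 FPKM (SD, n = 3) and did not pass (limma adjusted p = 0.406). Its lowest value, 1.39 FPKM, was in si-NC replicate 1, and without that library the log2 difference of 0.33 became 0.0090.

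The 3′ UTRs of the family were read for 4 words of 7 bases, which had been picked in an earlier search of these same data. The words are TGAAAGC with its neighbour shifted by 1 base, GAAAGCA, and the word CCTGATC with its own shifted neighbour, which reads CTGATCA. A match is therefore no independent evidence. Only the transcript strand of the longest annotated 3′ UTR of each gene was searched. Sites of GALNT7 are shown with sites of 3 relatives that also held a word, and not every match is printed. Sequences are from the GENCODE 29 transcripts (GRCh38), 5′ to 3′, with the matched word in capitals.
GALNT7, chr4:173321827-173321855, plus strand: acctggaacctCCTGATCagtttgaagga
GALNT7, chr4:173322632-173322660, plus strand: ttgttatccctTGAAAGCgagggtgacaa
GALNT6, chr12:51354293-51354321, minus strand: atgtctgggaaCCTGATCaccagcttctc
GALNT10, chr5:154419481-154419509, plus strand: caggattcctgTGAAAGCaggagcagcag
GALNT10, chr5:154417817-154417845, plus strand: ggctgatttgcCCTGATCcatgcttccat
GALNT1, chr18:35711662-35711690, plus strand: ttcttactgtaTGAAAGCttaacagcaat

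In GALNT7 the word CCTGATC lay at bases 121 to 127 after the stop codon and CTGATCA, which overlaps it, at bases 122 to 128. TGAAAGC lay at bases 926 to 932 of the 2250-base 3′ UTR. GALNT6 held the same overlapping pair at bases 69 to 75 and 70 to 76. GALNT10 held the most matches, 6 in a 3′ UTR of 4012 bases. Among them TGAAAGC at bases 2520 to 2526 overlaps GAAAGCA at bases 2521 to 2527. The FPKM of GALNT10 overlapped between the groups, and an effect of the words on FPKM was not tested. GALNT1 held 1 match. GALNT2, GALNT3, GALNT11, GALNT12, GALNT14 and GALNT18 held none. Over 10271 tested protein-coding genes with a 3′ UTR of at least 50 bases, 15.7% held TGAAAGC, 18.8% GAAAGCA, 8.04% CCTGATC and 9.53% CTGATCA, and 33.8% held at least 1 of the 4. Long 3′ UTRs hold more of them: the share was 43.9% among the 1670 genes whose 3′ UTR was 0.8 to 1.25 times as long as that of GALNT7, and 64.7% among the 1221 genes of like length to GALNT10.

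**Figure D1:**
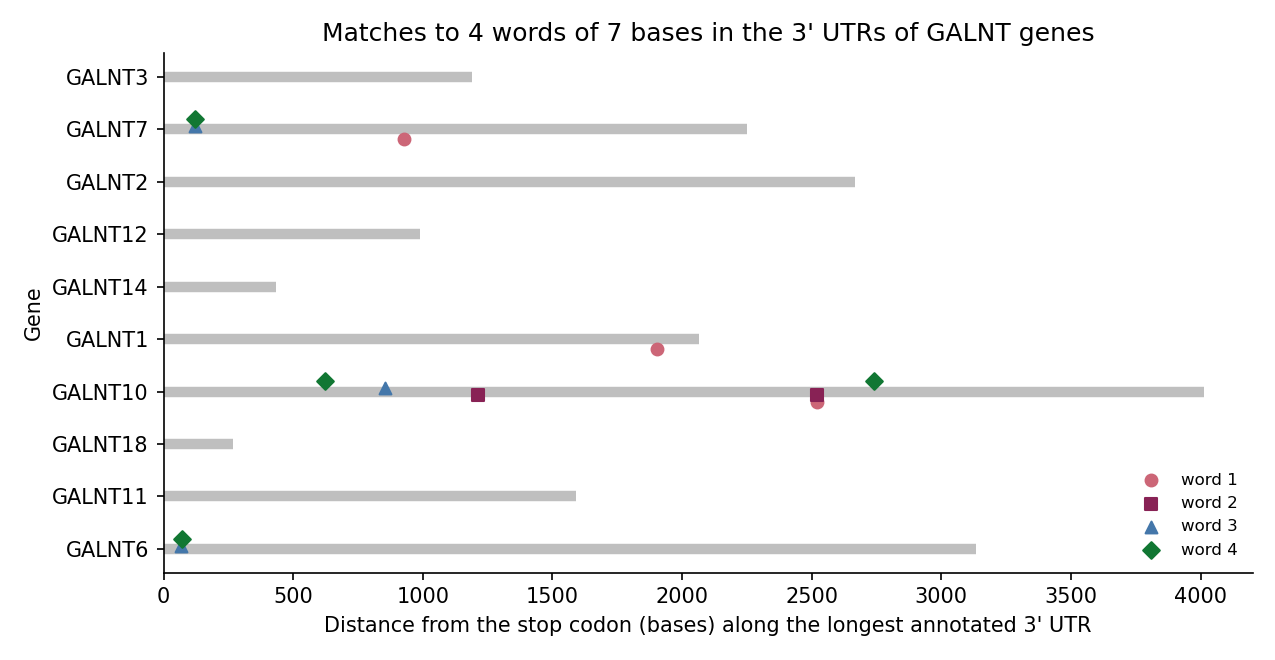
Positions of the 4 words (word 1 is TGAAAGC, word 2 GAAAGCA, word 3 CCTGATC, word 4 CTGATCA) along the longest annotated 3′ UTR of each GALNT gene, as distance from the stop codon in bases; each grey bar is 1 3′ UTR. GALNT7 has 3 matches and GALNT10 has 6, and 6 of the 10 genes have none.

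In control cells the member with the highest level was GALNT3, which is known for protecting the phosphate hormone FGF23 from cleavage. It had 27.46, 27.40 and 29.03 FPKM with si-NC. GALNT7, GALNT2 and GALNT12 followed at means of 14.3, 14.3 and 13.9 FPKM, with overlapping ranges between neighbours in that order. GALNT14, GALNT1 and GALNT10 came next at 9.17, 8.72 and 8.63 FPKM, again with overlapping ranges. GALNT18 (5.70), GALNT11 (4.97) and GALNT6 (3.44) were lower, each with a range apart from its neighbours. These levels are per kilobase of the union of annotated exons, which can be longer than the transcript a cell makes and then understates the level. With si-circTMEM45A the order kept GALNT3 first, and GALNT7 moved from the second place to the seventh, below GALNT1 (range 7.65 to 9.17 FPKM) and above GALNT18 (4.81 to 5.77).

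**Figure D2:**
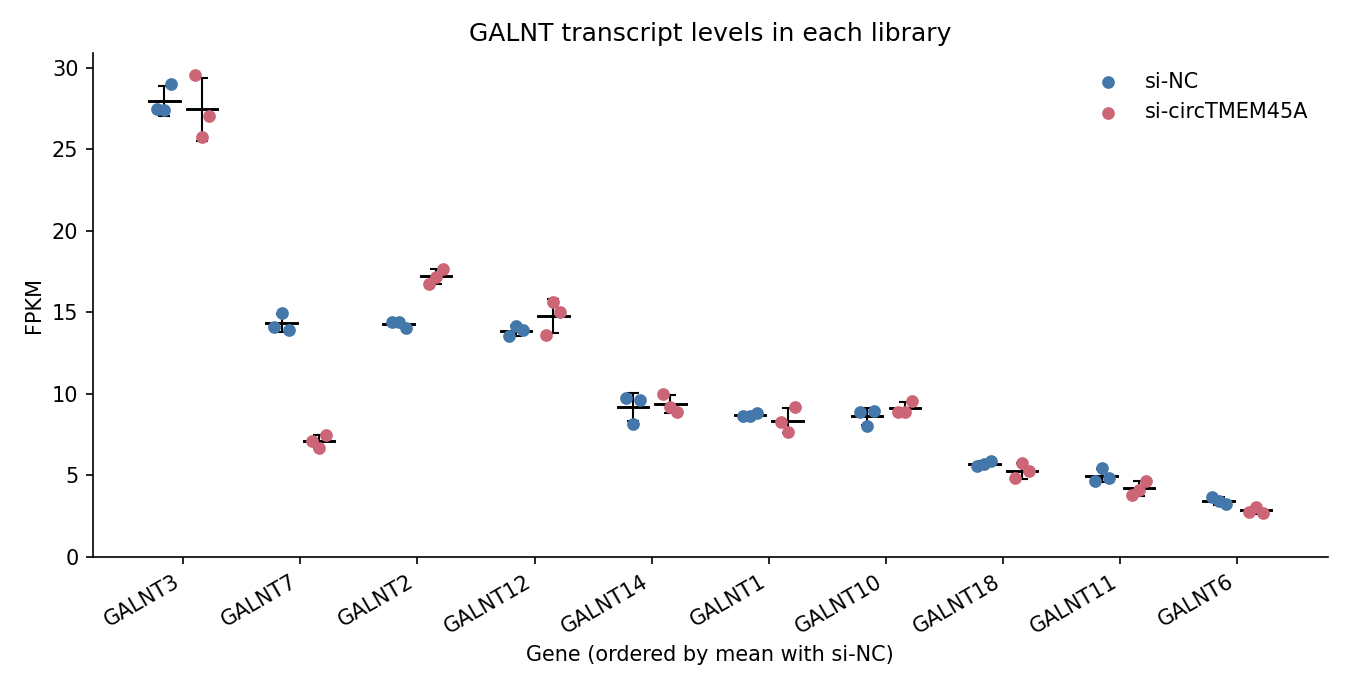
FPKM of each GALNT gene in the 3 si-NC and 3 si-circTMEM45A libraries (points), with group mean and SD (black). GALNT7 and GALNT2 show separated groups far wider than their spread, GALNT6 a narrow gap, and the other genes overlap.

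Of the 9 members measured, 2 passed an adjusted p of 0.05 in limma, GALNT7 lower and GALNT2 higher, where 18.8% of all tested genes passed (11.1% higher and 7.64% lower). The groups did not overlap for 3 members, GALNT7, GALNT2 and GALNT6, against 39.2% of all tested genes. Because the set was picked on this comparison, nothing is read from these counts. The median difference of the 8 members other than GALNT7 was 0.00 on the log2(FPKM + 1) scale, with a range of -0.21 to 0.25, and that of all tested genes was 0.03. Over all genes 1411 were higher and 969 lower, and with median-of-ratios scaling 1078 were higher and 1206 lower, and with quantile scaling 1119 and 1168. No member changed sign under TPM, median-of-ratios or quantile scaling.

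Among the transferases that start on peptide, GALNT2 (chromosome 1, 230057990 to 230282124, plus strand), a broadly expressed enzyme with lipoprotein regulators among its substrates, had 14.4, 14.4 and 14.1 FPKM with si-NC and 16.8, 17.2 and 17.7 with si-circTMEM45A. All 3 si-circTMEM45A libraries were higher. The difference was 0.25 ± 0.04 (SE) on the log2(FPKM + 1) scale, and 0.22 to 0.27 over the alternatives. GALNT1 (chromosome 18, 35581117 to 35711834, plus strand), the other broadly expressed starter, had 8.67, 8.64 and 8.85 FPKM with si-NC and 8.25, 7.65 and 9.17 with si-circTMEM45A. Here the treated libraries spread around the controls, with a difference of -0.06 ± 0.06 (SE). It was -0.0035 without si-circTMEM45A replicate 2 and -0.12 without si-circTMEM45A replicate 3.

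GALNT3 (chromosome 2, 165747591 to 165794682, minus strand) had 29.6, 25.7 and 27.1 FPKM with si-circTMEM45A, on both sides of its si-NC values. Its difference of -0.03 ± 0.06 (SE) became 0.02 without si-circTMEM45A replicate 2. GALNT6 (chromosome 12, 51351247 to 51392867, minus strand), a close relative of GALNT3 linked to O-glycosylation of fibronectin, had 3.68, 3.42 and 3.22 FPKM with si-NC and 2.75, 3.07 and 2.71 with si-circTMEM45A. The groups did not overlap, but the gap between 3.07 and 3.22 was small. The difference was -0.21 ± 0.07 (SE), and -0.27 with limma voom on recovered reads.

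GALNT11 (chromosome 7, 152025674 to 152122347, plus strand), which glycosylates the linkers between ligand-binding repeats of lipoprotein receptors, had 4.67, 5.43 and 4.81 FPKM with si-NC and 3.81, 4.09 and 4.68 with si-circTMEM45A. The highest treated library lay just above the lowest control. The difference was -0.20 ± 0.08 (SE), and -0.24 with limma voom. GALNT14 (chromosome 2, 30910467 to 31155202, minus strand), a relative of GALNT2 known for glycosylating death receptors, had 9.73, 8.17 and 9.60 FPKM with si-NC and 9.99, 9.21 and 8.89 with si-circTMEM45A. Its difference of 0.03 ± 0.07 (SE) turned to -0.04 without si-NC replicate 2 and to -0.01 without si-circTMEM45A replicate 1.

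GALNT10 (chromosome 5, 154190730 to 154420984, plus strand) belongs with GALNT7 to the branch that prefers peptides already carrying GalNAc. It had 8.91, 8.03 and 8.93 FPKM with si-NC and 8.88, 8.92 and 9.59 with si-circTMEM45A. The groups overlapped, and its difference was 0.07 ± 0.06 (SE), or 0.03 when si-NC replicate 2 was left out and 0.04 when si-circTMEM45A replicate 3 was. GALNT12 (chromosome 9, 98807699 to 98850081, plus strand), of which inactivating variants have been studied in colorectal cancer, had 13.5, 14.1 and 13.9 FPKM with si-NC and 13.6, 15.6 and 15.1 with si-circTMEM45A. Its difference was 0.08 ± 0.06 (SE), or 0.14 without si-circTMEM45A replicate 1 and 0.04 without si-circTMEM45A replicate 2. GALNT18 (chromosome 11, 11270876 to 11622005, minus strand) had 5.55, 5.70 and 5.86 FPKM against 4.81, 5.77 and 5.25 and did not pass (limma adjusted p = 0.349).

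**Figure D3:**
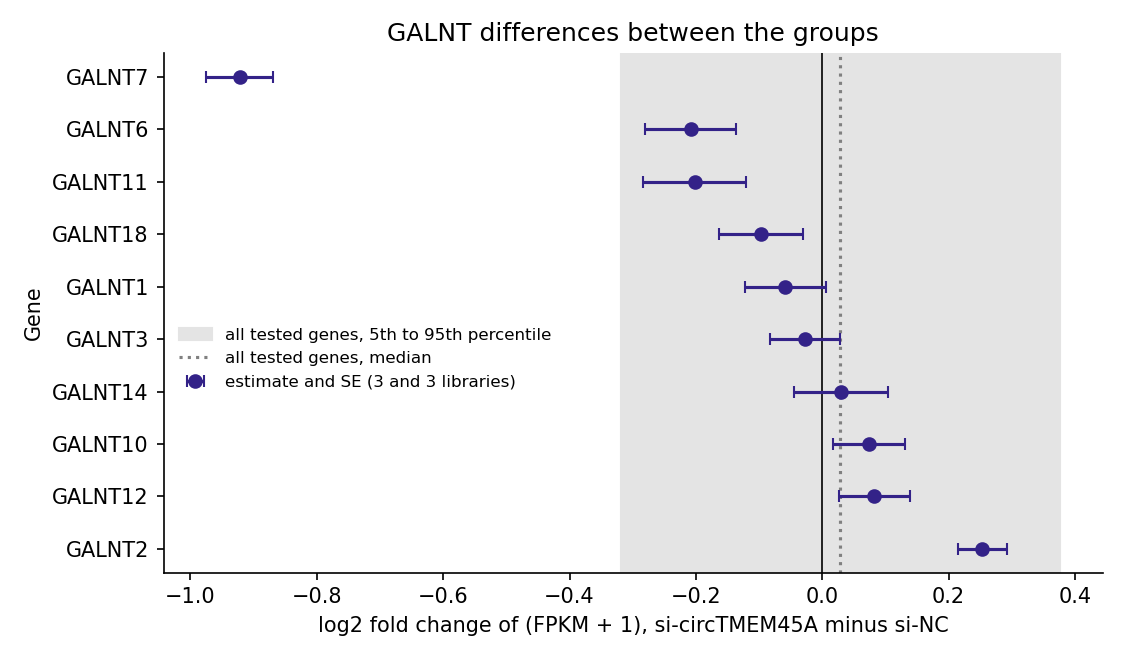
Difference of each GALNT gene on the log2(FPKM + 1) scale, si-circTMEM45A minus si-NC, with its SE from the limma fit; the grey band is the 5th to 95th percentile of all 12676 tested genes (-0.32 to 0.38) and the dotted line their median. GALNT7 at -0.92 lies outside the band and the other 9 genes lie inside it.

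The remaining GALNT genes were close to absent. GALNT4 had 3 to 14 reads per library (group means of 0.11 ± 0.06 FPKM in controls and 0.09 ± 0.05 in treated cells; SD, n = 3). GALNT9 had 2 to 11 reads, GALNT16 at most 7, GALNT15 at most 6, GALNTL6 at most 3, GALNT13 at most 2 and GALNT8 at most 1. GALNT17 and GALNTL5 were not analysed here. No transferase that was near 0 with si-NC reached the level of the listed members with si-circTMEM45A.

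The summed FPKM of the 9 members was 105 in each of si-NC replicates 1 and 2 and 106 in replicate 3, and 101, 98.2 and 102 with si-circTMEM45A. The means were 105 ± 0.91 and 100 ± 2.07 FPKM (SD, n = 3). Without GALNT7 the sums were 91.0 ± 1.41 and 93.3 ± 1.69 FPKM, and their ranges overlapped. GALNT7 took 13.4, 14.3 and 13.1% of the summed level with si-NC and 7.07, 6.81 and 7.30% with si-circTMEM45A. GALNT2 took 13.6 ± 0.29% and 17.1 ± 0.44%, and GALNT3 26.5 ± 0.66% and 27.3 ± 1.75%. These sums describe transcripts and not enzyme activity.

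**Figure D4:**
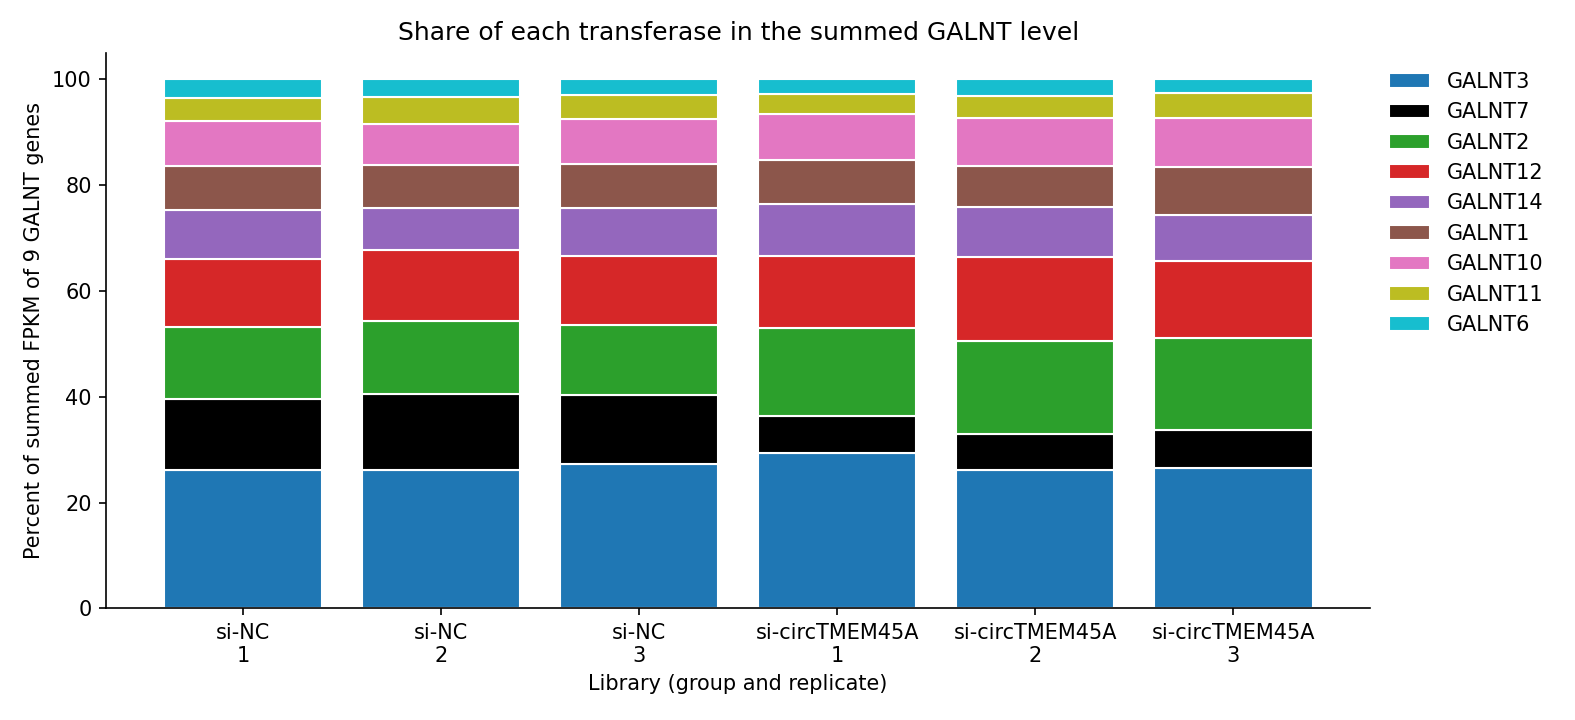
Share of each transferase in the summed FPKM of the 9 measured members, in percent, for each library. The black GALNT7 segment is 13.1 to 14.3% in the si-NC libraries and 6.81 to 7.30% in the si-circTMEM45A libraries.

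The genes nearest to GALNT7 in profile were sought among 7563 other tested genes with a mean of at least 5 FPKM, by the root mean square difference over the 6 libraries of log2(FPKM + 1) values centred on each gene's mean. This measure uses the group difference, so the list is a description. The 5 nearest were HACD2, a dehydratase of very-long-chain fatty acid elongation (distance 0.069), KIAA1191 (0.069), the chloride intracellular channel CLIC4 (0.082), the KDEL receptor KDELR3, which returns escaped proteins to the endoplasmic reticulum (0.084), and the repressor HES2 (0.086). HACD2 had 49.1, 49.9 and 45.6 FPKM with si-NC and 26.8, 26.4 and 28.5 with si-circTMEM45A. The ratios of the 5 means lay between 0.533 and 0.566. The 6 other GALNT members in this search were at distances of 0.43 to 0.59.

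Around the family, 64 genes of O-glycosylation and its surroundings were listed, 45 were tested, 7 rose and 3 fell, against the 11.1% and 7.64% of all tested genes. Their median difference was 0.04 on the log2(FPKM + 1) scale. Of 9 genes that make or carry the sugar donors, 1 rose and 1 fell, with a median of 0.00. SLC35D1, a transporter that brings UDP-GalNAc and UDP-glucuronic acid into the endoplasmic reticulum, had 6.93, 7.51 and 6.61 FPKM with si-NC and 5.08, 4.88 and 4.78 with si-circTMEM45A. It fell by 0.44 ± 0.06 (SE; limma adjusted p = 0.00403). SLC35A2, the Golgi transporter of UDP-galactose, rose from 26.6 ± 1.62 to 31.9 ± 1.31 FPKM (SD, n = 3; limma adjusted p = 0.0187). The other genes of this list, among them GFPT1, GFPT2, GNPNAT1, PGM3, UAP1 and GALK2, which build the hexosamine sugars, did not pass.

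Of 4 tested genes that extend the first sugar, 1 rose and 3 did not pass, with a median of 0.04. The riser was B3GNT3, an N-acetylglucosaminyltransferase of extended core chains, at 35.9, 37.0 and 40.6 FPKM with si-NC and 43.0, 43.7 and 44.2 with si-circTMEM45A (log2 difference 0.20 ± 0.05; SE, limma adjusted p = 0.0317). C1GALT1, which makes the core 1 disaccharide on the GALNT product, had 5.66, 5.65 and 5.31 FPKM against 5.84, 5.18 and 5.31, and its chaperone C1GALT1C1 had 20.3, 19.9 and 18.3 against 22.9, 20.1 and 20.3. Both overlapped between the groups. Of 3 tested sialyltransferases 1 rose, with a list median of -0.19. ST3GAL1, which caps core 1, went from 12.3 ± 0.30 to 14.3 ± 0.81 FPKM (SD, n = 3; limma adjusted p = 0.034), while ST3GAL2 had 4.33, 4.00 and 4.01 FPKM against 3.55, 2.98 and 3.60 and did not pass.

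Of 3 tested mucins and mucin-like carriers of O-glycans, 1 rose and 1 fell, with a list median of 0.05. CD44, a heavily glycosylated hyaluronan receptor, had 34.6, 35.9 and 35.2 FPKM with si-NC and 28.0, 27.3 and 28.3 with si-circTMEM45A. It fell by 0.33 ± 0.03 (SE; limma adjusted p = 0.00212). The membrane mucin MUC1 had 1.96, 2.46 and 1.84 FPKM with si-NC and 2.77, 2.91 and 2.88 with si-circTMEM45A (limma adjusted p = 0.0481). MUC16, another membrane mucin, overlapped between the groups at 2.74 to 3.28 FPKM and 2.93 to 3.28. The secreted mucins MUC2, MUC5AC, MUC5B and MUC6 and the other listed carriers did not reach the filter.

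Among 4 tested lipoprotein receptor genes, 1 fell and 3 did not pass, with a median of -0.08. LRP1, an endocytic receptor, had 11.7, 11.7 and 12.5 FPKM with si-NC and 7.62, 7.23 and 8.67 with si-circTMEM45A, a difference of -0.55 ± 0.07 (SE; limma adjusted p = 0.00322). LRP8, a related receptor, had 8.84, 8.86 and 9.08 FPKM against 8.11, 8.95 and 8.24, and the groups overlapped (limma adjusted p = 0.334). SLC35D1, CD44 and LRP1 kept their calls in limma under all 16 alternatives, with adjusted p of at most 0.0191, 0.0153 and 0.0163.

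Of 8 tested genes listed for other kinds of O-linked sugar, 3 rose, where 11.1% of all tested genes did. The list median was 0.17, against 0.03 for all tested genes. With TPM 1 of the 3 kept its call. The 3 were POFUT1, the protein O-fucosyltransferase of NOTCH-type repeats (23.2, 23.1 and 23.2 against 26.6, 26.1 and 25.6 FPKM, limma adjusted p = 0.0179), POGLUT1, which adds glucose to the same repeats (2.85, 2.85 and 3.13 against 3.79, 3.57 and 3.66 FPKM, limma adjusted p = 0.0345), and POMT2, a protein O-mannosyltransferase (3.42 ± 0.15 against 4.10 ± 0.08 FPKM; SD, n = 3, limma adjusted p = 0.0435). OGT, the enzyme of intracellular O-GlcNAc, had 25.6 ± 0.96 and 27.0 ± 0.98 FPKM (SD, n = 3) and did not pass (limma adjusted p = 0.281). Of 14 genes of Golgi tethering and enzyme retention, limma called 0. At an unadjusted p under 0.05, 1 was higher and 2 were lower, and limma voom called 1 higher. Their median was 0.03, and GOLPH3, which helps to hold glycosyltransferases in the Golgi, had 45.0 ± 1.07 and 44.8 ± 2.46 FPKM (SD, n = 3).

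Each of the 7 increases lost its call in at least 3 of the 6 fits that left out 1 library. In limma ST3GAL1, POGLUT1 and POMT2 lost their calls without any 1 of the 6 libraries, at adjusted p of 0.05 to 0.1, 0.0526 to 0.0983 and 0.0661 to 0.12. B3GNT3 lost it in 5 of these fits, all but the one without si-NC replicate 3 (limma adjusted p 0.0565 to 0.0971), and MUC1 in 5, all but the one without si-NC replicate 2 (0.0852 to 0.129). POFUT1 lost it when any si-NC library was left out, and also si-circTMEM45A replicate 2 (limma adjusted p 0.0532 to 0.058), and SLC35A2 when the omitted library was replicate 1 or 2 of si-NC, or replicate 3 of si-circTMEM45A (0.0611 to 0.0663). After conversion to TPM the filter passed 16708 genes, so the adjustment ran over more genes. In that fit the limma calls of POGLUT1 (adjusted p = 0.0529), POMT2 (0.0662), MUC1 (0.0661), B3GNT3 (0.057) and ST3GAL1 (0.0579) were lost. Median-of-ratios scaling lost the limma calls of POMT2 (adjusted p = 0.0631), ST3GAL1 (0.0616), MUC1 (0.0594) and B3GNT3 (0.053). Quantile scaling lost those of POMT2 (limma adjusted p = 0.0725), ST3GAL1 (0.0602) and MUC1 (0.0682). SLC35A2, POFUT1 and POGLUT1 kept their calls under both scalings.

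**Figure D5:**
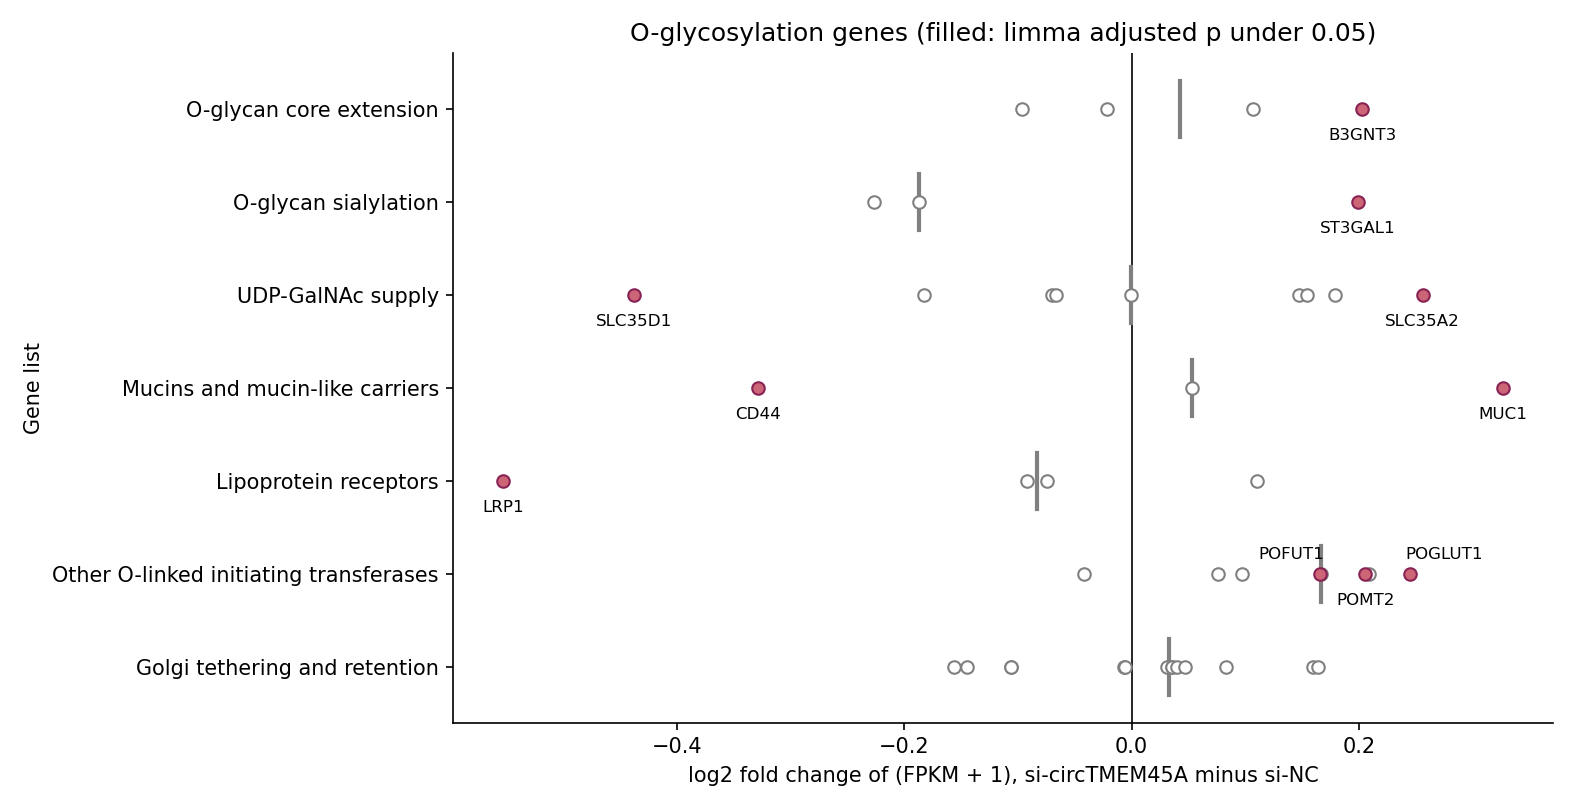
Difference of each tested gene in 7 lists around mucin-type O-glycosylation, on the log2(FPKM + 1) scale, si-circTMEM45A minus si-NC; filled points passed a limma adjusted p of 0.05, open points did not, and grey bars are list medians. LRP1 (-0.55), SLC35D1 (-0.44) and CD44 (-0.33) lie farthest to the left, and the 7 filled points on the right lie between 0.17 and 0.33.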

How the data were processed

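Per the submitters' processing notes, the tools included HISAT2 2.2.1, TopHat2, cutadapt 1.9, HTSeq and StringTie 2.1.6, with GRCh38 as the build. The role of each tool and the annotation release were not given in the sources used here. Deposited values were FPKM, computed by the authors for 29816 Ensembl genes, with 1 column per library, and 29593 of the genes had a symbol in the names table. FPKM times the GENCODE 29 union exon length and a library total came out as whole reads for 100% of values (tolerance 0.001). Read numbers and totals come from that step. Replicate pairs differed by more than counting noise (chi-square divided by its degrees of freedom, 2.71 to 5.07), and none was treated as a repeated library.

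Values were taken as log2(FPKM + 1), a scale that understates the changes of low genes. The 12676 genes that reached an FPKM of 1 in 3 or more libraries entered limma 3.58.1 (R 4.3.3; trend fit, two-sided tests), and Benjamini-Hochberg adjustment ran over all of them. The script was tested on simulated data. The genes named by rule are the members, the other GALNT genes with a group mean of at least 0.1 FPKM, up to 4 called genes and the most abundant gene of each list, and the 5 nearest profiles. Further genes were named for context after their values were seen, and some listed genes are not reported here. The members, lists and words were chosen with earlier results of these data known. Alternatives were a pseudocount of 0.1 or 0.5, a filter of FPKM 5, no filter, conversion to TPM, scaling by median of ratios or by quantiles, a fit with no variance trend, limma voom on the recovered reads, a replicate block, and the omission of each library in turn. Tables were made in Python 3.11.15.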

Additional observations from a re-analysis of the deposited data

How the results depend on the processing

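The number of genes passing limma over all genes was 2380. It went to 1254 with no filter on low values, where 29816 genes were tested, and to 3371 with limma voom on recovered reads. When 1 library was left out it was 1341 to 1945, with fewer libraries in each fit. The cause of these changes was not tested. The number of members past the threshold, 2, was 4 with limma voom on recovered reads. It rests on the values the set was picked on, and nothing is read from it. The 10 pathway genes called became 4 with no filter, 5 with TPM, where 16708 genes were tested, and 6 with median-of-ratios scaling. Their number was 14 with limma voom on recovered reads and 3 to 8 when 1 library was left out. The cause was not tested. The share of GALNT7 in the summed level stayed between 13.3 and 13.9% with si-NC and between 6.94 and 7.19% with si-circTMEM45A when 1 library was left out. Leaving out 1 library turned the sign of 3 genes near 0. GALNT3 ranged from -0.080 to 0.016, positive when si-circTMEM45A replicate 2 was left out. GALNT14 ranged from -0.043 to 0.070, negative when si-NC replicate 2 (-0.043) or si-circTMEM45A replicate 1 (-0.014) was left out. GOLPH3 ranged from -0.039 to 0.037, positive when si-NC replicate 3 (0.0074) or si-circTMEM45A replicate 2 (0.037) was left out. Same-numbered libraries deviated together at r = 0.026, 0.011 and 0.047, so the numbers were not taken as pairs. With the replicate block 1720 genes and 5 pathway genes were called. The pathway genes that lost their calls were POFUT1, POGLUT1, POMT2, ST3GAL1 and MUC1 (limma adjusted p 0.0505, 0.0742, 0.0858, 0.0753 and 0.0718).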
